A study of Mus musculus with 139 samples.

Results

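The 5 microRNA genes encoded inside the mouse Hox clusters that belong to the Mir10 and Mir196 families, Mir10a, Mir10b, Mir196a-1, Mir196a-2 and Mir196b, were followed across 11 tissues of the adult mouse. They were chosen by name and position, as the rows of these 5 genes in a table of 6114 small non-coding RNA genes. Of the 6114, 2207 are of the miRNA class. Earlier results of these data were known when the members were chosen. The study is an atlas of small RNA sequencing of C57BL/6J mice of wild-type genotype, 3 months old, with no treatment given in the labels. The 134 libraries come from 14 animals, taken as such from the replicate numbers in the titles. Brain, kidney, muscle and spleen had 14 libraries each, heart, liver and lung 13, bone marrow, intestine and pancreas 12, and testis 3. Animals 1 to 10 are female and 11 to 14 male by the column names, and the library names carry 3 prefixes, here called pools: N467 (kidney, liver, lung, pancreas and spleen in animals 1 to 10), N469 (bone marrow, brain, heart, intestine and muscle in the same animals) and N541 (every tissue of animals 11 to 14), so that sex, animal set and pool N541 cannot be told apart. For 1 of the 2 libraries made from each testis the labels give no age, genotype or prefix, and the table does not say which of the 2 it holds. The testis columns were taken as pool N541, the prefix of the other library of each testis.

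MicroRNAs are short RNAs that repress messenger RNAs by pairing mainly through their seed, bases 2 to 8 from the 5′ end. Hox genes encode transcription factors that set positional identity along the head-to-tail axis, and within a cluster their order on the chromosome follows the order of their expression domains along the body. The Mir10 genes lie beside Hox genes of the anterior and middle part of the clusters and the Mir196 genes beside more posterior ones, and both families are known to target Hox messenger RNAs. Adult tissues keep part of the Hox code of the embryonic region and cell lineage from which they arose.

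The mature 5p sequences are shown because the families are defined by them and because single-base differences decide which gene a read is counted for. They are from RefSeq (GRCm38.p6), which held all 5 members, and the capitals mark the seed. The relatives miR-99a, miR-99b and miR-100, which lie outside the Hox clusters, are shown for the different seed that sets them apart.
miR-10a-5p: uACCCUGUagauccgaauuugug
miR-10b-5p: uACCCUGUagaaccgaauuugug
miR-196a-5p: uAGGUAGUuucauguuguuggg
miR-196b-5p: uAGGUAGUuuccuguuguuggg
miR-99a-5p: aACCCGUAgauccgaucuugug
miR-99b-5p: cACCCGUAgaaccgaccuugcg
miR-100-5p: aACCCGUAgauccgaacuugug

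The 2 Mir10 products share their seed and differ by the substitution U12A, written as the miR-10a base, the position from the 5′ end and the miR-10b base. The miR-196a and miR-196b products share another seed and differ by A12C in the same notation. Mir196a-1 and Mir196a-2 yield the same mature 5p sequence, so reads of it cannot be assigned to 1 copy by sequence, and the labels do not say how such reads were treated. The counts do not separate 5p from 3p products.

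The 5 genes lie in all 4 Hox clusters (coordinates on GRCm38). Mir10a is at chr11:96317165-96317274 on the plus strand in the Hoxb cluster, 993 bases from Hoxb4 and 11044 bases from Hoxb5, in no annotated gene. Mir196a-1 is in the same cluster at chr11:96265164-96265265 on the plus strand, between Hoxb13 and Hoxb9, 6192 bases from the latter. Mir10b is at chr2:74726070-74726137 on the plus strand, in an intron of annotated Hoxd3 and Hoxd4 transcripts of the same strand. Mir196a-2 is at chr15:102973350-102973434 on the plus strand in the Hoxc cluster, in an intron of a Hoxc5 transcript, 1457 bases from Hoxc10 and 3005 bases from Hoxc9. Mir196b is at chr6:52230081-52230165 on the minus strand in the Hoxa cluster, in an exon of an annotated Hoxa9 transcript of the same strand. The only other Hox-cluster row with more than 10 counts in the whole table was Mir615, in the Hoxc cluster at chr15:103014910-103015001 on the plus strand.

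The median library held 6327550 counts, the shallowest held 10255 and the deepest 34095704, and 8 were under 100000. The pancreas libraries were the shallowest (10255 to 964665 counts) and the labelled testis libraries the deepest on the median. The labelled testis libraries lacked counts for 11 of 12 male germ cell miRNAs, whose summed level was at most 0.138 CPM (counts per 1000000 counts of the library), so they are called "labelled testis" throughout. The epithelial miRNA Mir205 was at 5439, 6189 and 6870 CPM in them, against at most 35.4 in muscle and 10.2 in brain. Of the 11 tissues its mean level, scaled for library composition, was highest in labelled testis. The epithelial miRNAs Mir200a, Mir200b, Mir200c, Mir141 and Mir429 summed to 7091 to 8752 CPM in labelled testis. That lay inside the ranges of kidney (3830 to 11233), lung (4135 to 14631), intestine (741 to 47985) and pancreas (6083 to 88091). The part of epithelial cells in the high Mir10b and Mir196 values of labelled testis was not tested. The library Pancreas 11 held intestinal epithelium miRNAs at 148805 CPM, against at most 2057.7 in the other pancreas libraries. In these bulk tissues fewer cells of a type and less RNA per cell cannot be told apart.

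The Mir10 pair was most abundant in kidney and least in brain. Together Mir10a and Mir10b took 52.3% (lowest), 62.1% (median) and 67.6% (highest) of all counts in the 14 kidney libraries, and 63.9% to 76.4% of the miRNA counts. Of all counts, the highest library outside kidney and muscle was one of intestine, at 27.3%, and muscle ran from 7.53% to 62.2%. The 3 labelled testis libraries held 19.0%, 23.0% and 26.8%. Brain was lowest, at a median of 0.564%. Part of this ranking changed with miRNA counts as the total. The labelled testis libraries then held 41.2% to 49.2%, above every intestine library. Intestine ran from 12.9963% to 31.5% of miRNA counts, against 1.15% to 27.3% of all counts. The library Intestine 6 held 1042054 miRNA counts among 15496948. Brain stayed lowest, at a median of 0.671% of miRNA counts.

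Mir10a took 29.2% of counts in kidney on the median (19.2% to 37.2%), 16.1% in lung (8.49% to 25.2%), 8.91% in intestine (0.766% to 18.0%), 8.61% in liver (4.54% to 13.7%), 7.08% in spleen (4.96% to 14.4%) and 6.10% in bone marrow (1.92% to 11.3%). In muscle it took 2.80% (1.66% to 4.89%), in heart 2.27% (1.07% to 3.42%), in pancreas 1.16% (0.863% to 3.40%), in labelled testis 1.04%, 1.14% and 1.17%, and in brain 0.124% (0.0396% to 1.76%). Kidney and lung overlapped, while every kidney library lay above every library of the other 9 tissues. The highest brain libraries overlapped heart, muscle, pancreas, intestine and labelled testis.

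Mir10b was ordered otherwise. It took 33.2% of counts in kidney on the median (25.0% to 39.4%), 18.0%, 21.8% and 25.6% in labelled testis, and 12.0% in muscle (5.34% to 60.5%). Next came pancreas at 4.37% (2.53% to 7.25%), intestine at 3.33% (0.387% to 11.3%) and heart at 1.86% (0.952% to 3.24%). Below 1% on the median were spleen at 0.905% (0.488% to 1.50%), bone marrow at 0.784% (0.268% to 1.83%), lung at 0.510% (0.260% to 1.44%), brain at 0.443% (0.0911% to 3.77%) and liver at 0.207% (0.0464% to 0.658%). Lung and liver were thus among the highest tissues for Mir10a and among the lowest for Mir10b.

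**Figure D1:**
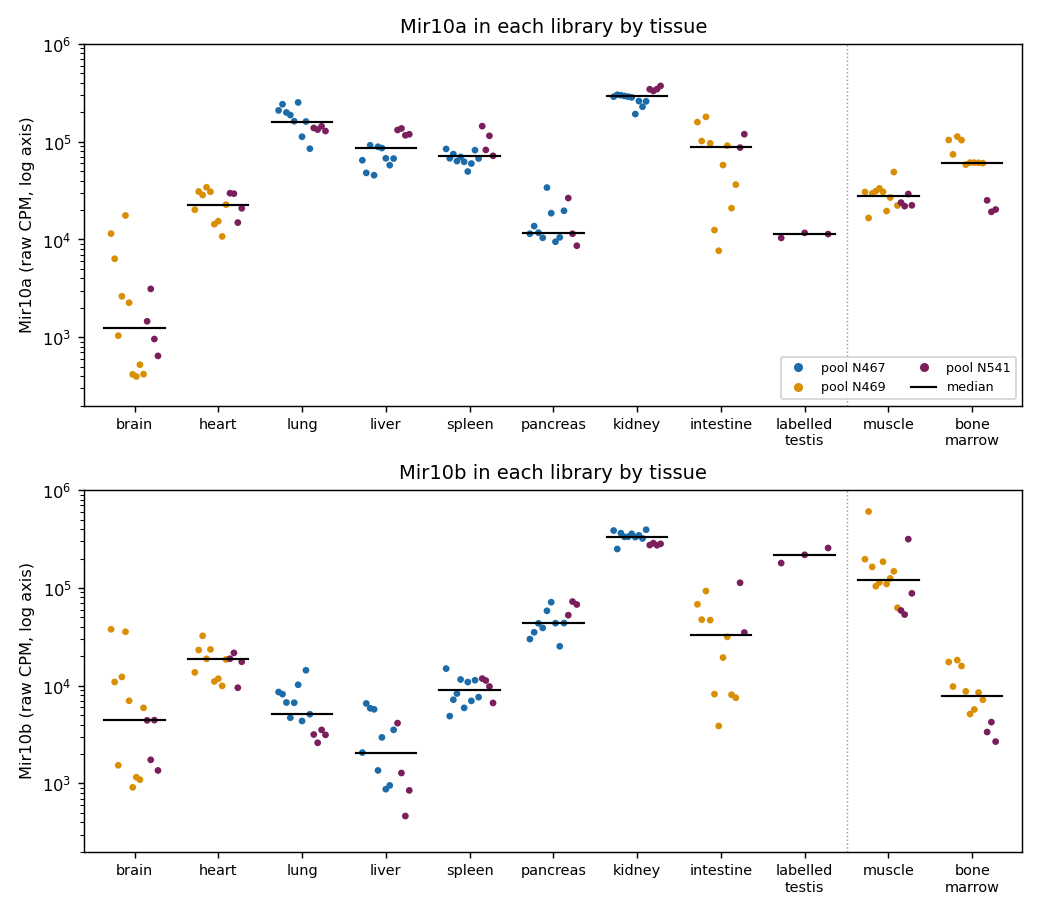
Mir10a (top) and Mir10b (bottom) in each of the 134 libraries, as raw CPM on a log axis, by tissue. Tissues left of the dotted line are in the head-to-tail order chosen here, dots are libraries coloured by pool and bars are medians. Kidney is highest for both, lung and liver are high for Mir10a and low for Mir10b, and labelled testis and muscle are high for Mir10b.

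Each tissue was then compared with the mean of the other 10 in 1 edgeR quasi-likelihood fit over 1268 genes with tissue and pool as terms and TMM scaling, which adjusts library totals for composition; a call needed a Benjamini-Hochberg adjusted p under 0.05 and a log2 fold change of at least 1 in size. In animals 1 to 10 each tissue lay wholly in N467 or wholly in N469. With pool as a term, differences between tissues of these pools, such as kidney and muscle, are therefore linked only through animals 11 to 14. Over the 55 comparisons of 5 members and 11 tissues, 19 were called higher and 10 lower, where 20.0% and 16.1% of all gene and tissue comparisons were. In kidney all 5 members were higher (14.3% of genes tested were), and in muscle and labelled testis 4 each (19.2% and 14.2% of genes). In bone marrow the 3 Mir196 genes were higher (28.9% of genes) and Mir10b was lower (18.6%). Elsewhere Mir10a was called higher in lung (17.4% of genes), liver (11.2%) and intestine (34.7%). Lower calls fell in brain (2 members, 22.6% of genes), pancreas (2, 22.0%), liver (2, 20.9%), heart (1, 17.6%), lung (1, 14.2%) and spleen (1, 14.4%). Each Mir196 gene had no count in some tissue, which leaves a mean that includes it without a finite value. A Mir196 gene could then hardly be called lower, except in a tissue itself at 0, as Mir196b in liver and Mir196a-2 in pancreas. Missing lower calls for Mir196 in brain, heart and lung therefore say nothing of its level there. The 10 lower calls are not comparable with the 16.1% over all genes.

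Mir10a was higher in kidney by a log2 fold change of 4.31 ± 0.29 (SE; adjusted p = 8.42e-28, edgeR), in lung by 2.43 ± 0.30 (adjusted p = 6.23e-12) and in liver by 1.73 ± 0.30 (adjusted p = 5.27e-07). It was lower in pancreas (-2.06 ± 0.39, adjusted p = 3.83e-06) and most of all in brain (-4.87 ± 0.43, adjusted p = 1.40e-20; -7.10 without the libraries Brain 1, 2, 4, 5 and 6). The calls in intestine (1.10 ± 0.31) and heart (-1.12 ± 0.34) lay near the fold threshold. The former was lost without the 3 labelled testis libraries (0.94), or without testis 11 (0.90) or 12 (0.92) alone. The latter was lost without Pancreas 11 (-0.80), without testis 13 (-0.81), without Muscle 2 and Muscle 13 (-0.79) and without those 5 brain libraries (-0.50). Spleen (0.53 ± 0.30), muscle (-0.12 ± 0.31), bone marrow (-0.60 ± 0.36) and labelled testis (-1.33 ± 0.66) were not called. With miRNA totals spleen (1.45), muscle (-1.15) and labelled testis (-1.43) were called, and spleen was also with unscaled totals (1.33). In pool N541 alone spleen (1.26) and bone marrow (-1.07) were called.

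Mir10b was higher in kidney by 4.85 ± 0.37 (adjusted p = 1.69e-23, edgeR), in labelled testis by 4.22 ± 0.51 (adjusted p = 1.19e-11) and in muscle by 4.13 ± 0.36 (adjusted p = 1.93e-20). It was lower in liver (-3.09 ± 0.50), bone marrow (-2.88 ± 0.51), brain (-2.55 ± 0.48; -4.55 without those brain libraries), lung (-2.46 ± 0.48) and spleen (-2.46 ± 0.45), with adjusted p from 1.28e-07 in liver to 9.16e-06 in lung. Heart (-0.77 ± 0.42), pancreas (0.17 ± 0.40) and intestine (0.85 ± 0.39) were not called, though intestine was called without the labelled testis libraries (1.30) and without those brain libraries (1.17), and pancreas with unscaled totals (1.02). The directions of the 2 genes were opposite in lung and liver, where both were called.

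**Figure D2:**
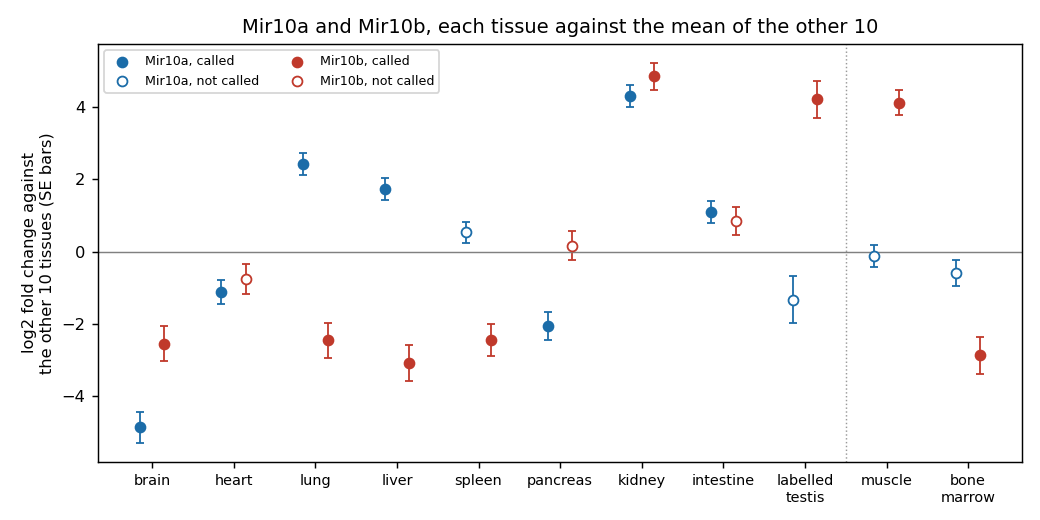
Log2 fold change of Mir10a (blue) and Mir10b (red) in each tissue against the mean of the other 10 tissues from the edgeR fit, with standard error bars; filled points were called and open points were not. In lung and liver the 2 genes lie on opposite sides of 0, and in kidney both lie above 4.

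In the fitted order for Mir10a (kidney, lung, liver, intestine, spleen, muscle, bone marrow, heart, labelled testis, pancreas, brain), only the first and the last pair of neighbours differed by the same test. Over all 55 pairs of tissues and all genes, 43.6% of comparisons were called in either direction. Kidney exceeded lung by 1.71 ± 0.38 (adjusted p = 1.04e-04, edgeR; 39.8% of genes differed), a call lost with unscaled totals (0.79) and with totals over miRNA genes (0.57), and pancreas exceeded brain by 2.56 ± 0.51 (adjusted p = 8.92e-06; 43.9% of genes). In the fitted order for Mir10b (kidney, labelled testis, muscle, intestine, pancreas, heart, spleen, lung, brain, bone marrow, liver), muscle exceeded intestine by 2.98 ± 0.53 (adjusted p = 3.21e-07; 57.0% of genes) and spleen was below heart by -1.53 ± 0.56 (adjusted p = 0.0160; 46.2% of genes), the latter lost with unscaled totals (-0.82). Its other neighbours were not called. Kidney, muscle and labelled testis formed a top group for Mir10b in which muscle was -0.66 ± 0.58 and labelled testis -0.58 ± 0.84 relative to kidney.

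The muscle value of Mir10b rested in part on the libraries Muscle 2 and Muscle 13, with 60.5% and 31.6% of counts, against 5.34% to 19.7% in the other 12. Those libraries also held the muscle miRNA Mir133a-1 at 12598 to 15659 CPM, against 57981 to 85408 in the other 12, and Mir615 at 2.80 and 6.88 against 24.3 to 45.9. Without them Mir10b in muscle was higher than in the other tissues by 2.60, exceeded heart by 2.64 in place of 4.46 (31.6% of genes differed between these tissues), and was lower than kidney by a called difference (-2.15, adjusted p = 0.00141, edgeR). In raw CPM, Mir10a and all 3 Mir196 genes lay inside the range of the other 12 muscle libraries in Muscle 13. In Muscle 2 they lay below it, with Mir196b at 51.4 CPM against 111 to 239.9. Raw CPM there is relative to a total of which Mir10b took 60.5%. The TMM factors, which multiply the library total, were 0.1985 in Muscle 2 and 0.2973 in Muscle 13. Those of the other 12 ran from 0.5372 to 1.062. After this scaling Mir10a and the Mir196 genes lay above the other 12 in both libraries. The part of these libraries' composition in the Mir10b value was not tested.

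The ratio of the 2 Mir10 counts within a library does not depend on scaling between libraries. As log2(Mir10a/Mir10b) its median was 4.99 in liver (2.87 to 7.97), 4.88 in lung (3.48 to 5.67), 3.12 in spleen (2.19 to 3.79), 2.87 in bone marrow (2.18 to 3.57) and 1.16 in intestine (-0.38 to 2.27). It was 0.39 in heart (-0.18 to 0.86) and -0.24 in kidney (-0.79 to 0.40). Mir10b prevailed in brain (-1.34, from -3.83 to 0.84), pancreas (-1.64, from -2.97 to -0.78), muscle (-2.10, from -5.19 to -1.28) and labelled testis (-4.23, from -4.50 to -4.12). All libraries of liver, lung, spleen and bone marrow held more Mir10a, and all of pancreas, muscle and labelled testis more Mir10b.

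**Figure D3:**
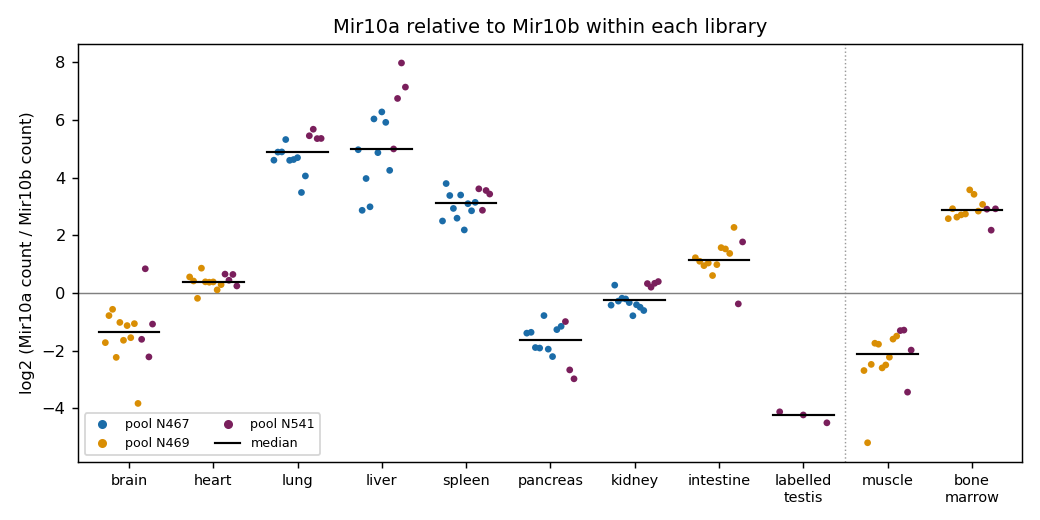
Log2 of the Mir10a count over the Mir10b count in each library by tissue, with dots coloured by pool and bars at medians. All libraries of liver, lung, spleen and bone marrow lie above 2, and all of pancreas, muscle and labelled testis lie below 0.

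Each library's ratio was compared with the mean of the same animal's other libraries by an exact two-sided sign-flip permutation test over animals, adjusted over the 11 tissues. The ratio was higher in liver by 4.73 ± 1.65 (SD; 13 of 13 animals, adjusted p = 4.48e-04), in lung by 4.19 ± 0.82 (13 of 13, same p), in spleen by 2.29 ± 0.68 (14 of 14, adjusted exact p = 3.36e-04) and in bone marrow by 1.98 ± 0.43 (12 of 12, adjusted exact p = 5.97e-04). It was lower in muscle by -3.75 ± 1.11, in brain by -2.75 ± 1.19 and in kidney by -1.35 ± 0.54, each in 14 of 14 animals (adjusted exact p = 3.36e-04). Pancreas was lower by -3.02 ± 0.67 in 12 of 12 animals and heart by -0.77 ± 0.52 in 12 of 13 (adjusted exact p = 5.97e-04 for both). Intestine was not called (0.13 ± 0.73, higher in 7 of 12 animals, exact p = 0.597), and labelled testis, lower by -5.70 ± 0.12 in 3 of 3 animals, had an exact p of 0.25, the smallest that 3 animals can give. An unpaired permutation test against all other libraries lost kidney (adjusted p = 0.106) and heart (adjusted p = 0.409). It called labelled testis (-5.46, adjusted p = 4.21e-04), but it permutes libraries and ignores the animals.

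In kidney the mean log2 ratio was -0.34 in animals 1 to 10 and 0.32 in animals 11 to 14. Mir10a ran from 191927 to 302380 CPM in pool N467 and from 330833 to 372087 in N541, with no overlap, while Mir10b ran from 250266 to 394419 and from 273387 to 287598. After TMM scaling neither gene was called between the animal sets in kidney (0.32 ± 0.54 and -0.36 ± 0.70 for animals 11 to 14 minus 1 to 10), and the difference in the ratio was not tested.

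The Mir196 genes were far less abundant and far more restricted than Mir10. Levels above 4 CPM in every library were found in muscle, kidney, bone marrow and labelled testis, low counts in all spleen libraries, and scattered counts elsewhere. In raw CPM, Mir196a-1 was at 144 in muscle on the median (100.5 to 207), 57.1 in kidney (39.3 to 99.5), 11.8 in bone marrow (4.88 to 22.3), 9.13, 9.68 and 11.9 in labelled testis and 0.484 in spleen (0.211 to 1.78). Mir196a-2 was at 263 in muscle (193 to 396), 95.1 in kidney (70.6 to 189), 22.8 in bone marrow (7.69 to 42.6), 15.9, 17.4 and 21.0 in labelled testis and 1.10 in spleen (0.317 to 1.75). For both copies the muscle and kidney ranges did not overlap, and neither overlapped bone marrow or labelled testis.

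Mir196b had another order. It was at 292 in kidney on the median (187 to 353), 145 in bone marrow (35.4 to 257), 132 in muscle (51.4 to 239.9), 106, 133.2 and 146 in labelled testis and 4.52 in spleen (2.24 to 6.97). Bone marrow, muscle and labelled testis overlapped each other, and the highest bone marrow and muscle libraries overlapped kidney. Mir196b also gave counts in all 13 lung libraries (median 0.624), in 12 of 13 heart libraries (median 0.606) and in 10 of 12 intestine libraries (median 1.04). The heart range reached 8.94 and overlapped spleen.

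**Figure D4:**
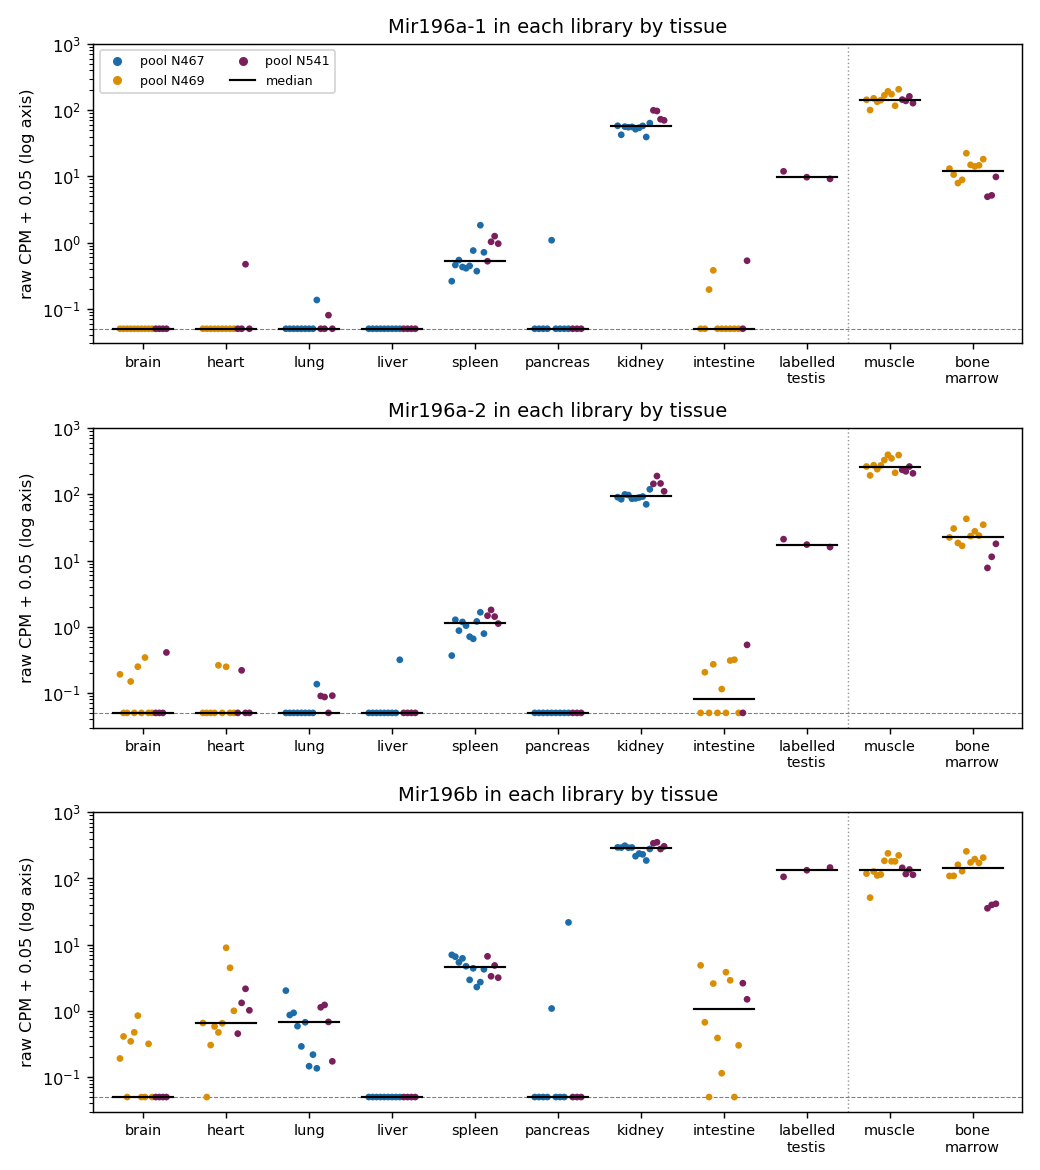
Mir196a-1, Mir196a-2 and Mir196b in each library by tissue, as raw CPM plus 0.05 on a log axis, so that libraries with no count lie on the dashed line; dots are coloured by pool and bars are medians. Muscle, kidney, bone marrow and labelled testis stand above the rest for all 3 genes, with muscle on top for the Mir196a copies and kidney for Mir196b.

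Several tissues gave no count at all. Mir196a-1 had 0 of 56821524 summed counts in brain, which allows up to 0.0528 CPM, and 0 of 34631168 in liver, which allows up to 0.0866. Against these limits its summed level in muscle was at least 2701-fold higher than in brain and at least 1646-fold higher than in liver. Mir196b had none in liver either, and was at least 3068-fold higher in kidney and at least 1330-fold higher in bone marrow. Mir196a-2 was at 0 in pancreas, where the shallow libraries allow up to 1.04 CPM, and was at least 239-fold higher in muscle. These limits, set at 3 counts, cover counting error only, since reads without molecular identifiers are not independent molecules. A contrast with the mean of the other tissues has no finite fold where such a tissue enters, so for these genes a call from such a contrast, or from an axial step that holds such a tissue, is given without a fold, and folds are given only between tissues with counts.

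Kidney exceeded spleen by a log2 fold change of 8.05 ± 0.37 for Mir196a-1 (adjusted p = 4.18e-39, edgeR), 8.17 ± 0.36 for Mir196a-2 and 7.51 ± 0.47 for Mir196b (47.6% of genes differed). Bone marrow, the other blood-forming tissue, exceeded spleen by 3.59 ± 0.45, 3.76 ± 0.43 and 4.10 ± 0.54 for the 3 genes in that order (largest adjusted p = 5.39e-10; 30.9% of genes). Muscle and kidney were not called apart for the Mir196a copies (0.79 ± 0.44 and 0.77 ± 0.42, muscle minus kidney, adjusted p = 0.147 for both; 38.8% of genes were) although their unscaled ranges were separate. Mir196b was lower in muscle than in kidney by -1.66 ± 0.48 (adjusted p = 0.00331, edgeR). Labelled testis was below kidney for both Mir196a copies (-3.33 ± 0.59 and -3.30 ± 0.58; 31.9% of genes differed) and not called for Mir196b (-1.59 ± 0.71, adjusted p = 0.0763; -1.80 and adjusted p = 0.0439 with the animal as a replicate block).

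Bone marrow lay below kidney for all 3 Mir196 genes (-4.46 ± 0.48, -4.41 ± 0.45 and -3.40 ± 0.54; 48.5% of genes differed), and below labelled testis for Mir196b only by call (-1.81 ± 0.63, adjusted p = 0.0213, edgeR; 27.4% of genes). That call was lost with the animal as a replicate block (-1.57, adjusted p = 0.0634) and with unscaled totals (-0.61). For the Mir196a copies the same difference was -1.13 ± 0.51 and -1.11 ± 0.49 (adjusted p = 0.0845 and 0.0791). Bone marrow of the N541 animals was lower in unscaled counts than that of N469 for Mir196b, from 35.4 to 41.5 against 109 to 257 CPM, with no overlap. Mir10a in the same tissue ran from 19174 to 25137 against 58337 to 112960, also with no overlap, while after scaling neither difference between the animal sets was called.

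The 2 Mir196a copies kept a nearly fixed proportion. Mir196a-1 made up a median of 35.4% of their summed counts in muscle (32.7% to 38.3%), 36.7% in kidney (33.3% to 40.9%), 34.5% in bone marrow (25.9% to 38.9%) and 36.2% in labelled testis (35.8% to 36.4%). Since the copies share their mature 5p sequence, how far the counting sets this proportion was not tested. Mir196b relative to the sum of the copies was 0.331 in muscle on the median (0.175 to 0.552), 1.67 in kidney (1.23 to 2.31), 3.93 in bone marrow (1.50 to 6.13) and 4.93 in labelled testis (3.22 to 5.84). Muscle did not overlap the other 3 tissues.

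Within animals, the log2 ratio of Mir196b to the Mir196a copies was higher in kidney than in muscle by 2.35 ± 0.56 (SD; 14 of 14 animals, adjusted p = 3.66e-04, exact two-sided sign-flip permutation test). It was higher in bone marrow than in muscle by 3.43 ± 0.63 (12 of 12 animals, adjusted exact p = 7.32e-04) and than in kidney by 1.03 ± 0.57 (11 of 12 animals, adjusted exact p = 9.77e-04). These 3 pairs were chosen after their values were seen.

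Tissues were put in an order from head to tail that was chosen here by gross anatomy. It ran from head (brain) over thorax (heart and lung), upper abdomen (liver, spleen and pancreas) and lower abdomen (kidney and intestine) to labelled testis. Placing kidney after liver, spleen and pancreas was part of this choice, and another placing was not tested. Labelled testis was placed by its label alone. Muscle and bone marrow were left out, since the labels do not say which muscle or bone was taken. From head to thorax 2 of the 5 members were called higher (18.2% of genes tested were): Mir10a by 5.03 ± 0.44 (adjusted p = 2.44e-20, edgeR) and Mir196b by 2.87 ± 0.52 (adjusted p = 6.29e-07). Mir10b was not called (0.85 ± 0.48), but was with the animal as a replicate block (1.15, adjusted p = 0.0366), without the labelled testis libraries (1.26) and without the libraries Brain 1, 2, 4, 5 and 6 described below (3.04). From thorax to upper abdomen none was called higher (12.1% of genes) and Mir196b was called lower (20.4% of genes; adjusted p = 0.0349, edgeR), with liver at 0. That call was lost with the animal as a replicate block (adjusted p = 0.0561), with unscaled totals, miRNA totals and DESeq2's Wald test, and in pool N541 alone. Within the upper abdomen, spleen held more Mir196b than lung (2.10 ± 0.40, adjusted p = 3.29e-06; 44.8% of genes) and heart (1.47 ± 0.52, adjusted p = 0.0131), the latter lost without Pancreas 11 (1.18).

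From upper to lower abdomen all 5 members were called higher (27.0% of genes), Mir10a by 2.40 ± 0.28 (adjusted p = 4.88e-13, edgeR) and Mir10b by 4.23 ± 0.36 (adjusted p = 3.53e-20). The 2 tissues of the lower abdomen differed: intestine lay below kidney for Mir10a (-2.92 ± 0.49) and Mir10b (-3.64 ± 0.62; 49.9% of genes differed). Mir10b was nevertheless higher in intestine than in liver (3.59 ± 0.63; 49.8% of genes) and spleen (3.01 ± 0.57), though not than in pancreas (0.62 ± 0.58). Mir10a was higher in intestine than in pancreas (2.87 ± 0.51; 39.4% of genes) and was not called against liver (-0.58 ± 0.48) or spleen (0.51 ± 0.46). The Mir196a copies were lower in intestine than in spleen (-2.46 ± 0.57 and -2.35 ± 0.51; 53.6% of genes), and Mir196b was not called between them (-1.08 ± 0.55). From lower abdomen to labelled testis, Mir196a-1 (1.93 ± 0.45), Mir196a-2 (1.96 ± 0.43) and Mir196b (2.70 ± 0.52) were called higher (16.6% of genes), and Mir10a lower (-3.67 ± 0.81; 11.8% of genes). The Mir196 calls averaged kidney with intestine: labelled testis exceeded intestine by 7.18 ± 0.60, 7.22 ± 0.55 and 6.996 ± 0.63 for the 3 genes (36.2% of genes differed), and was below kidney for both Mir196a copies as given above. Mir10b was not called (1.24 ± 0.69).

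As a description over the 9 placed tissues, which come from the same set of animals and differ in depth, Spearman's rho between axial place and median raw CPM was 0.24 for Mir10a, 0.71 for Mir10b, 0.65 for Mir196a-1, 0.80 for Mir196a-2 and 0.68 for Mir196b. Without labelled testis it was 0.59, 0.62, 0.49, 0.74 and 0.57 over 8 tissues. For the Mir196 genes many medians tied at 0. Those of Mir196a-1 were 0 in brain, heart, lung, liver, pancreas and intestine. Those of Mir196a-2 were 0 in the same tissues except intestine, at 0.0323 with 6 of 12 libraries at 0. Those of Mir196b were 0 in brain, liver and pancreas. No member rose at every step along this chosen order.

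Likeness was measured as Pearson's r between mean log2 TMM-scaled levels over the 11 tissues, as a description. The Mir196a copies had r = 0.999 with each other and 0.95 and 0.96 with Mir196b. Mir10a and Mir10b had r = 0.34, lower than Mir10b had with the 3 Mir196 genes (0.75 to 0.77). Of the other genes tested, Mir615 was the most alike to Mir10b (0.78), Mir196a-1 (0.94), Mir196a-2 (0.94) and Mir196b (0.91). The 3 most alike to Mir10a were Mir214 (0.87), Gm22748 (0.81) and Mir1968 (0.75).

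Mir615 lies in the same Hoxc cluster as Mir196a-2. Its raw level was 32.3 CPM in muscle on the median (2.80 to 45.9), 21.3 in kidney (6.63 to 33.1), 4.97 in bone marrow (1.71 to 8.22), 2.17 in intestine (0.0645 to 4.92), and 2.17, 2.38 and 2.90 in labelled testis, with no count in pancreas. Intestine thus gave Mir615 counts in 12 of 12 libraries and Mir196a-2 counts in 6 of 12.

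The relatives outside the Hox clusters are given beside the members, with no test of a difference in pattern. Mir100, Mir99a and Mir99b were all called higher in brain (2.31, 1.50 and 2.16; 36.7% of genes were), where both Mir10 genes were lower (22.6% of genes). All 3 were lower in bone marrow (-1.95, -2.76 and -2.58; 18.6% of genes), as was Mir10b. In kidney Mir99b was called higher (1.16 ± 0.27) and the other 2 were not. In muscle Mir100 (1.98) and Mir99a (1.04) were higher, as was Mir10b, and in pancreas Mir100 (-3.45) and Mir99b (-1.69) were lower, as was Mir10a. In heart Mir100 (1.46) and Mir99a (1.74), in lung Mir99b (1.57) and in liver Mir99a (1.19) were higher. In intestine Mir99a (-3.09) and Mir99b (-1.05) and in spleen Mir99a (-2.01) were lower, and none was called in labelled testis. Of the 12 let-7 genes, a family of abundant miRNAs outside the Hox clusters, none was called higher in kidney (14.3% of genes were) or muscle (19.2%). All 3 Mir196 genes were higher there, and also in labelled testis and bone marrow. In labelled testis 2 let-7 genes were higher (14.2% of genes). In bone marrow no let-7 gene was higher (28.9% of genes) and 5 were lower (18.6%). The median log2 fold change of the let-7 genes was -0.06 in kidney and -0.19 in muscle, against -0.32 and -0.13 over all genes tested.

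Brain, the tissue with least Mir10, was uneven. In the libraries Brain 1, 2, 4, 5 and 6, Mir10b ran from 7012 to 37748 CPM, against 911 to 5931 in the other 9, and Mir10a from 2253 to 17588 against 396 to 3119. The same 5 libraries gave Mir196b counts in 5 of 5 (1 to 4 counts) and Mir615 counts in 5 of 5 (7 to 41), against 1 of 9 and 0 of 9. The muscle miRNA Mir206 ran from 35.1 to 136 in them and reached 6.10 in the others, and the epithelial miRNA Mir200a ran from 1.80 to 5.79 against 109.7 to 5355. The part of these differences in the Mir10 values was not tested. The 5 libraries were picked after these values were seen and hold the highest Mir10b, so leaving them out lowers brain Mir10 by selection.

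**Figure D5:**
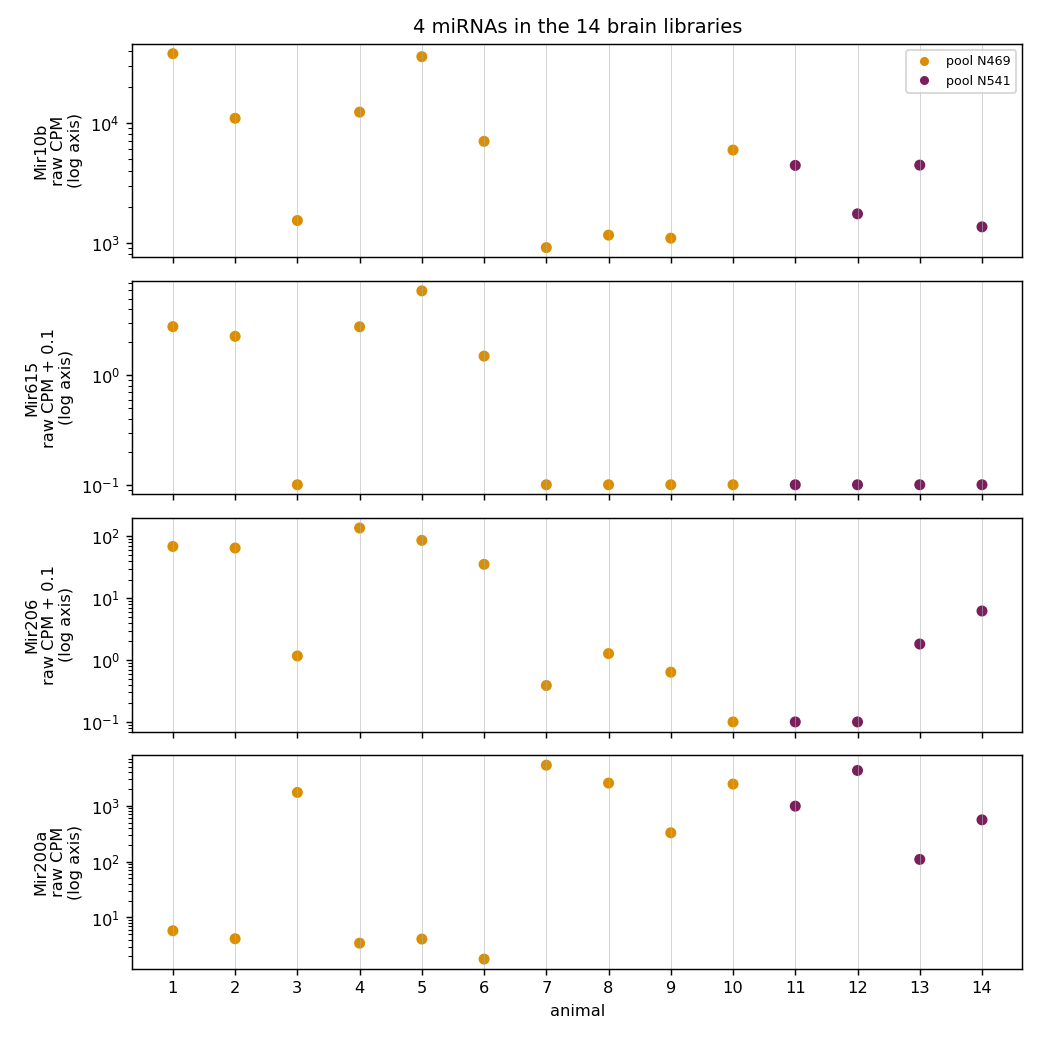
Mir10b, Mir615, Mir206 and Mir200a in the 14 brain libraries by animal number, as raw CPM on log axes (plus 0.1 for Mir615 and Mir206), coloured by pool. In animals 1, 2, 4, 5 and 6, Mir10b lies from 7012 to 37748 and Mir615 is above 0, while Mir200a is at most 5.79.

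Animals 11 to 14 were compared with animals 1 to 10 within each of 10 tissues. Of 50 comparisons of the members 5 were called, where 24.5% of all gene and tissue comparisons were. In brain Mir10a (-2.66 ± 0.65, adjusted p = 8.07e-04, edgeR) and Mir10b (-3.11 ± 0.83, adjusted p = 0.00237) were lower in animals 11 to 14 (32.4% of genes differed). Without the 5 brain libraries the differences were 0.67 and -0.41, neither called. Those libraries are all of animals 1 to 10 and hold the highest Mir10b of brain. Leaving them out lowers that side by selection, so the loss of the calls is no independent check. In spleen Mir10a (1.33 ± 0.52), Mir196a-1 (1.52 ± 0.45) and Mir196a-2 (1.40 ± 0.42) were higher in animals 11 to 14 (31.7% of genes differed), the copies at medians of 0.947 and 1.40 against 0.402 and 0.907 CPM. The dependence of the difference on tissue passed the test for both Mir10 genes (53.4% of genes did) and for no Mir196 gene (adjusted p from 0.336 to 0.477, edgeR).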

How the data were processed

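Small RNA libraries of 11 tissues were analysed from 1 table of raw counts per gene that the authors deposited. Reads were aligned with STAR 2.5.1 to mm10 (GRCm38) and counted with featureCounts, per the submitters' processing notes; for strand and multiply mapped reads no setting is named there. Of 139 samples, 134 had a column and 5 were not analysed here. The members and lists were chosen with earlier results of these data known.

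Genes passing edgeR's filter at a minimum count of 10 (1268) were fitted with edgeR 4.0.16 (limma 3.58.1, R 4.3.3) by quasi-likelihood, with TMM scaling and terms for tissue and pool, and p-values were adjusted by Benjamini-Hochberg over all genes tested. Calls needed an adjusted p under 0.05 and a log2 fold change of at least 1 in size. Genes named outside the members were taken from the 3 most alike by Pearson's r and the fixed Mir99, Mir100, let-7 and Mir615 rows. Libraries that stood apart and their markers were chosen after their values were seen. The fits were tested on simulated data. Replicate numbers were taken as animals. Deviations from tissue means had a median correlation of 0.152 over 583 pairs of tissues of 1 animal and -0.0282 over 7529 pairs of different animals. Pairs of 1 animal always share sex and animal set, so this difference cannot settle whether equal numbers are the same animal. The paired tests rest on that reading. Alternatives were other scalings, filters, terms, libraries left out and DESeq2 1.42.0. Where nothing says otherwise, counting precision follows from totals of 10255 to 34095704.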

Additional observations from a re-analysis of the deposited data

Results flagged for a closer look

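For Mir10a the difference between animals 11 to 14 and animals 1 to 10 depended on the tissue (interaction test in edgeR's quasi-likelihood fit, adjusted p = 0.009), and for Mir10b likewise (adjusted p = 0.008988). The same test passed for 53.4% of the 1029 genes tested. Without the libraries Brain 1, 2, 4, 5 and 6 the adjusted p was 0.283 for Mir10a and 0.355 for Mir10b, and with miRNA totals it was 0.0521 for Mir10a. Those libraries are all of animals 1 to 10 and hold the highest Mir10b of brain, so leaving them out is no independent check. Sex, animal set and pool cannot be told apart here.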

How the results depend on the processing

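The members had 19 higher and 10 lower tissue calls, 10 higher and 2 lower calls over axial steps and 204 calls over tissue pairs. DESeq2's Wald test gave 25 lower tissue calls. In edgeR's tissue contrasts the Mir196 genes could hardly be called lower, as given above. The lower step calls were 1 with unscaled totals, miRNA totals, the Wald test, the replicate block, pool N541 alone, and without the 3 testis libraries with or without Pancreas 11. The call lost was Mir196b from thorax to upper abdomen, or, without the testis libraries, Mir10a to labelled testis, a step they alone give. With the animal as a replicate block the other counts were 19, 10, 11 and 204. Without the 3 testis libraries, whose own comparisons then drop out, there were 15 higher and 9 lower tissue calls, 8 higher step calls and 163 pair calls. Leaving out 1 testis library gave 18 to 19 higher and 9 to 10 lower tissue calls, 10 to 11 higher and 2 lower step calls and 203 to 204 pair calls. The ratio test called 9 tissues, and 0 in animals 11 to 14 alone, too few animals to reach the threshold. The 5 calls between animal sets became 2 with miRNA totals and 3 without Brain 1, 2, 4, 5 and 6. Settings that leave out the 3 testis, 2 muscle or 5 brain libraries together were chosen after seeing the data.

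Values that changed sign were uncalled under the alternative, and the cause was not tested. Mir10a in spleen was -0.61 in animals 1 to 10 alone. Mir10a in muscle was 0.11 with no pool term, 0.33 in N541 and 0.20 without the 5 brain libraries. Mir10a in bone marrow was 0.23 with unscaled and 0.40 with miRNA totals. Mir10b in pancreas was -0.065 with no filter, -0.24 in libraries of at least 100000 counts, -0.032 without Pancreas 11, and -0.25 to -0.11 without 1 testis library (-0.23 without testis 12). Mir10b from thorax to upper abdomen was 0.11, 0.13 and 0.073 with unscaled totals, miRNA totals and N541 alone, and for labelled testis minus kidney 0.44 with miRNA totals. With unscaled and miRNA totals, bone marrow minus labelled testis was 0.015 and 0.026 for Mir196a-1 and 0.042 and 0.0095 for Mir196a-2. Mir196b in muscle minus labelled testis was 0.12 with no pool term, 0.13 with the replicate block and 0.20 in N541, and bone marrow minus muscle was 0.053 with miRNA totals. Intestine minus spleen was -0.57 with unscaled and -0.37 with miRNA totals for Mir10a, and intestine minus pancreas -0.40 with unscaled totals for Mir10b. The ratio in intestine was -0.68 in animals 11 to 14, and the brain set difference of Mir10a 0.67 without the 5 brain libraries. Pancreas depth limits what its zeros show.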
